A study of Mus musculus with 15 samples.

Results

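The fibrillar collagens are the secreted proteins whose rope-like triple helices line up into the striated fibrils of connective tissue, and 7 of their genes, Col1a1, Col1a2, Col3a1, Col5a1, Col5a2, Col5a3 and Col11a1, were taken by symbol from a table of 23352 mouse genes. All 7 had a row. Messenger RNA had been sequenced from C2C12 cells, an established mouse myoblast line (precursors of skeletal muscle fibres), in 5 groups of 3 libraries, and every group had been given a lentiviral construct. The constructs carried MLX in its wild-type form (MLX-WT), a dominant-negative MLX (MLX-DN), a hairpin RNA that targets Mlx (MLX shRNA), a hairpin with no target (non-targeting shRNA), or a vector that makes green fluorescent protein and nothing else (GFP control, called an empty vector in the growth protocol). MLX is a transcription factor of the helix-loop-helix leucine zipper class that binds DNA together with MondoA, ChREBP or MAD proteins. The promoter of each construct, the number of hairpins used, and whether cells were cloned or pooled are not given in the sources used here. Nor is it given whether the 3 libraries of a group were separate cultures. So p-values here set differences between groups only against the spread of libraries within groups, which may reflect technical spread alone. The study asked how the transcriptome of muscle cells follows raised and lowered MLX activity.

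A collagen fibril of most soft tissues is built mainly from type I collagen, a helix of alpha1 chains (Col1a1) wound with an alpha2 chain (Col1a2), often mixed with type III, a helix of Col3a1 chains alone. Type V and the related type XI collagens are minor partners that start fibrils and limit their width. Their chains come from Col5a1, Col5a2 and Col5a3 for type V and from Col11a1 for one chain of type XI. In muscle these proteins form the sheaths around fibres and bundles, and connective tissue cells are known as their main source, although cultured myoblasts make them too.

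The deposited values are log2 FPKM (fragments scaled to transcript length and to sequencing depth, so a level per length), read here as log2(FPKM + 2). Steps between the lowest values gave depths per library of 38.5 to 82.9 M reads (estimated) for the GFP control, 53.1 to 77.9 for MLX-WT, 47.2 to 65.9 for MLX-DN, 39.7 to 56.2 for the non-targeting shRNA and 37.1 to 52.3 for MLX shRNA. Mlx itself averaged 17.1 ± 0.516 FPKM (SD, n = 3) in GFP control libraries, 644 ± 11.6 under MLX-WT and 394 ± 8.76 under MLX-DN. It averaged 17.1 ± 0.778 FPKM in the non-targeting group and 3.21 ± 0.645 after knockdown (n = 3). The RNA level does not show whether MLX-DN acted as its label says. All 12 muscle markers passed the filter on low values, with a summed level of 2502 to 2977 FPKM, and Myog, a marker of myoblasts that have begun to differentiate, had group means of 445 FPKM in the GFP control, 601 in MLX-WT libraries, 706 in MLX-DN libraries, 657 in the non-targeting group and 578 in the MLX shRNA group.

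A window of 250 bases before the annotated start was read for 5 of the 7 genes from RefSeq (build GRCm38.p6). Col1a1 and Col5a2 had no entry. The windows of Col1a2, Col3a1 and Col5a3 are shown because the first pair fell with MLX shRNA while Col5a3 rose. They lie at chr6:4505368-4505617 (plus strand), chr1:45311288-45311537 (plus strand) and chr9:20815068-20815317 (minus strand), each written 5′ to 3′ along its gene. Capitals mark matches, on either strand, to 5 letter patterns. They are the E-box CACGTG, to which MLX dimers are known to bind, the CCAAT box, the GC box GGGCGG, the TATA box TATAAA and the SMAD element CAGACA.
Col1a2: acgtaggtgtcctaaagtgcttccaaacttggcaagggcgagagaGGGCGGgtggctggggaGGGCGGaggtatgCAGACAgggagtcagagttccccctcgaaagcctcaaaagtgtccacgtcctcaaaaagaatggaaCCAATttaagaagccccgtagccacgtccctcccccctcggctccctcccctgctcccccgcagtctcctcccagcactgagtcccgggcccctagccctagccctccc
Col3a1: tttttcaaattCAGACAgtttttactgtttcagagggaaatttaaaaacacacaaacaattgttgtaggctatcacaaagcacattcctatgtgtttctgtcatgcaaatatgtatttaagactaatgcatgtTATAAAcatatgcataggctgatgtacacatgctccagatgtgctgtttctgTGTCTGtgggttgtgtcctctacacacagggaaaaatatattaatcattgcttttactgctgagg
Col5a3: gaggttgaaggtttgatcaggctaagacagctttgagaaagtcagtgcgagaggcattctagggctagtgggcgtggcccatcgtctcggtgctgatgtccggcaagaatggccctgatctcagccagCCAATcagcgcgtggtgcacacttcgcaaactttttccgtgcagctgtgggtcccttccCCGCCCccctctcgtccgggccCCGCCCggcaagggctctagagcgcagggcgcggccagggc
CACGTG was in none of the 5 windows, and it is in 6.02% of the 32851 mouse promoter windows of the same length. That result says only that these letters are not in these windows. The Col1a2 window held 1 CCAAT, 2 GGGCGG and 1 CAGACA, the Col3a1 window 1 TATAAA and 2 CAGACA, and the Col5a3 window 1 CCAAT and 2 GGGCGG. Of the windows not shown, that of Col5a1 held GGGCGG and CAGACA. That of Col11a1 held CCAAT and GGGCGG and no CAGACA, the same patterns as Col5a3. Both Col5a1 and Col11a1 fell with MLX shRNA, so CAGACA did not separate the genes that fell from Col5a3. Over all windows CCAAT was in 33.8%, GGGCGG in 32.7%, TATAAA in 12.4% and CAGACA in 17.1%. The Col3a1 window was 35.2% G and C, against 62.0% in Col1a2 and 62.8% for Col5a3. No pattern overlapped another in these windows.

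In C2C12 cells Col3a1 was the most abundant of the 7 in every group, and Col1a1 was the gene that varied most among the well expressed ones. Over the 15 libraries the mean level was 744 FPKM for Col3a1, 304 for Col1a2, 253 for Col5a2, 177 for Col1a1, 118 for Col5a1, 91.6 for Col5a3 and 1.44 for Col11a1. The highest group mean was 10.6 times the lowest for Col1a1, 4.42 for Col1a2, 3.39 for Col3a1, 2.98 for Col5a3, 2.01 for Col5a2 and 1.81 for Col5a1. For Col11a1 it was 16.3 times, at a much lower level. Col11a1 reached 1 FPKM in 9 of the 15 libraries, those of the GFP control, MLX-DN and the non-targeting shRNA, so it passed the filter only through groups where it was high.

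Col1a1 encodes the alpha1 chain of type I collagen. Its 3 libraries stood at 438, 448 and 442 FPKM in the GFP control and at 203, 216 and 198 in the non-targeting shRNA group. MLX-WT libraries stood at 149, 147 and 149, MLX-DN libraries at 43.1, 43.7 and 39.0, and MLX shRNA libraries at 46.9, 48.2 and 48.0. No 2 groups overlapped, and both controls lay above all 9 libraries with altered MLX. The order was GFP control, non-targeting shRNA, MLX-WT, MLX shRNA and MLX-DN, and even the last neighbours differed (log2 0.18, limma adjusted p = 0.000410).

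Col1a2, which encodes the alpha2 chain, had a different order. It stood at 524, 529 and 528 FPKM in the GFP control, 359, 355 and 360 with MLX-WT, and 309, 323 and 311 with the non-targeting shRNA. It was at 207, 206 and 195 with MLX-DN and 117, 122 and 119 with MLX shRNA. MLX-WT lay above the non-targeting control here and below it for Col1a1, and MLX-DN lay above MLX shRNA. All neighbours in the order of Col1a2 passed the limma test.

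Col3a1, the single chain of type III collagen, was at 940, 953 and 959 FPKM in the GFP control and 962, 1021 and 970 in the non-targeting shRNA group. These controls did not pass the test against each other (log2 0.05, adjusted p = 0.0694 by limma, interval -0.00 to 0.10), although their values did not overlap. Without non-targeting shRNA replicate 1 that adjusted p was 0.0347 (limma). In MLX-WT libraries Col3a1 was at 875, 866 and 857 FPKM, in MLX-DN libraries at 637, 628 and 618, and in MLX shRNA libraries at 286, 294 and 293. The MLX shRNA libraries were far below all others.

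**Figure D1:**
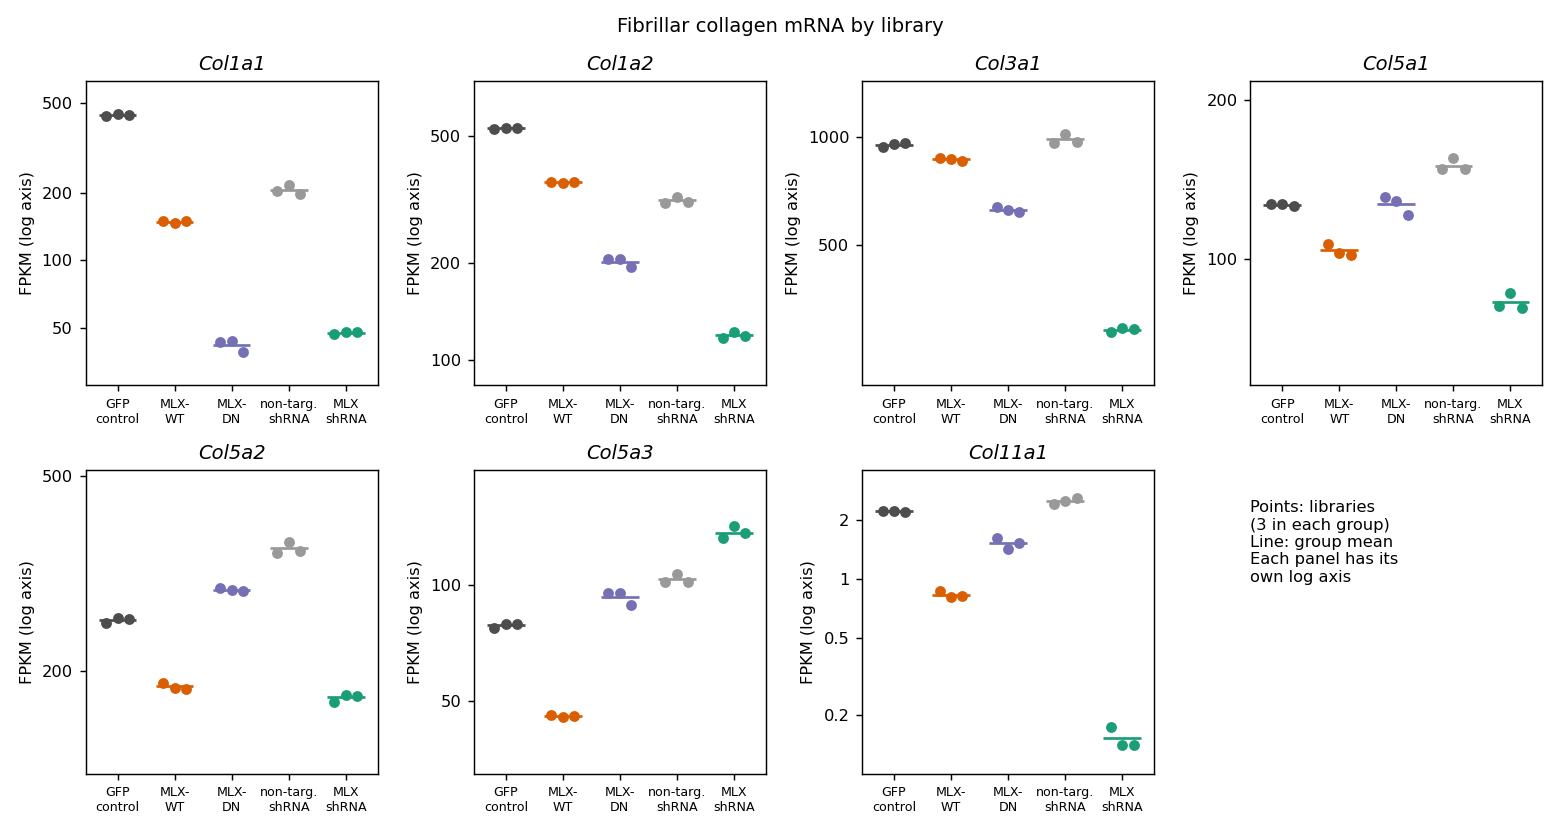
FPKM of each fibrillar collagen gene (vertical log axes, one scale per panel) in the 5 groups on the horizontal axis, with a point for each library and a line at the mean of 3. Col1a1 was lowest with MLX-DN (39.0 to 43.7) and MLX shRNA (46.9 to 48.2), while Col5a3 was highest with MLX shRNA (132 to 142).

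The type V genes were ordered in another way. Col5a1 stood at 127, 127 and 126 FPKM in the GFP control and at 131, 129 and 121 with MLX-DN, which overlapped it. These groups did not pass the test (log2 0.00, interval -0.06 to 0.07, adjusted p = 0.890 by limma). Col5a1 was highest with the non-targeting shRNA (148, 155 and 148), lower with MLX-WT (107, 103 and 102) and lowest with MLX shRNA (81.6, 86.4 and 81.1). Col5a2, the partner chain of Col5a1 in most type V collagen, had the same order: 348, 367 and 351 FPKM with the non-targeting shRNA, 295, 292 and 291 with MLX-DN, 251, 256 and 255 in the GFP control, 189, 185 and 184 with MLX-WT, and 173, 179 and 178 with MLX shRNA. No 2 groups of Col5a2 overlapped, and its closest neighbours, MLX shRNA and MLX-WT, differed by a log2 of -0.07 (limma adjusted p = 0.00945).

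Col5a3 encodes the least widespread of the type V chains, and it was the only one of the 7 with its highest level in the MLX shRNA group. It stood at 132, 142 and 136 FPKM with MLX shRNA, 102, 107 and 102 with the non-targeting shRNA, and 95.6, 95.2 and 88.7 with MLX-DN. It was at 77.6, 79.5 and 79.4 in the GFP control and 46.2, 45.5 and 45.8 with MLX-WT. The groups did not overlap, and MLX shRNA and MLX-WT were at the opposite ends.

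Col11a1, which encodes the alpha1 chain of type XI collagen, is best known from cartilage and was low in these cells. It was at 2.41, 2.48 and 2.57 FPKM with the non-targeting shRNA, 2.22, 2.21 and 2.20 in the GFP control, 1.61, 1.42 and 1.52 with MLX-DN, and 0.864, 0.802 and 0.815 in MLX-WT libraries. With MLX shRNA it was at 0.175, 0.141 and 0.142 FPKM, which is about 40 to 57 reads per library. All neighbours in its order passed the test, the closest being the 2 controls (log2 0.09, limma adjusted p = 0.00792).

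Of the fibrillar collagen genes outside the 7, 4 others had a row. Col2a1, the cartilage collagen, had group means of 0.0130 to 0.0243 FPKM. Col11a2 was at 0.570 to 1.14 FPKM, Col24a1 at 0.10 to 0.888 and Col27a1 at 0.741 to 2.77. Col24a1 had its highest mean with MLX-WT and its lowest with MLX shRNA. It did not pass the filter and was not tested.

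Adding wild-type MLX was accompanied by lower levels of the fibrillar collagen genes than in the GFP control. All 7 fell (limma, adjusted p under 0.05), where 42.7% of the 11945 tested genes were lower and 27.6% were higher. Its 3 libraries lay below all 3 of the GFP control for the 7 genes, as they did for 46.0% of tested genes, and above for 30.5%. Col1a1 fell most, to 33.5% of the GFP control level (log2 -1.56, SE 0.0365, limma adjusted p = 1.03e-14). Col5a3 fell by 0.76 on the log2 scale, Col11a1 by 0.57, Col1a2 by 0.55, Col5a2 by 0.44 and Col5a1 by 0.28. Col3a1 changed little, by a log2 of -0.13 (adjusted p = 0.000133 by limma), and it did not pass after quantile normalization (log2 -0.03, adjusted p = 0.236, with 5.73e-06 to 0.236 over its alternatives). The median over the 7 genes was -0.55, against -0.05 over all tested genes. It was -0.50 over the 6 genes without Col11a1, which passed the filter only through groups where it was high. The balance over the table depends on scaling: centring every library at its own median gave 4511 genes higher and 3775 lower, in place of 3300 and 5100.

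Against the other control the picture for type I collagen was not the same. MLX-WT differed from the non-targeting shRNA by a log2 of -0.46 for Col1a1 and 0.19 for Col1a2, so Col1a2 was higher there (limma adjusted p = 2.06e-08 and 9.47e-06). Col5a2 (-0.93), Col5a3 (-1.14), Col11a1 (-0.67), Col5a1 (-0.52) and Col3a1 (-0.18) were lower against that control as well (44.3% of all tested genes were lower and 25.7% higher).

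With MLX-DN the type I genes fell further and the type V genes did not follow. Against the GFP control, Col1a1 fell to 9.47% of its level (log2 -3.34, SE 0.0365, limma adjusted p = 1.53e-18), and 0.0251% of tested genes differed by as much or more. Col1a2 fell by 1.37 on the log2 scale, Col3a1 by 0.60 and Col11a1 by 0.26. Col5a2 rose by 0.20 and Col5a3 by 0.23 (adjusted p = 6.57e-07 and 4.08e-06 by limma), and Col5a1 was at 0.00. So 4 of 7 were lower and 2 higher, where 48.8% of the tested genes were lower and 32.6% higher. The same 4 lay below all GFP control libraries and the same 2 above, as did 49.9% and 33.7% of tested genes. With median centring 5017 genes of the table were higher and 4660 lower, in place of 3892 and 5831.

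These rises are tied to the control used. Against the non-targeting shRNA, which was higher in all 3 type V genes, MLX-DN was lower for Col5a1 (-0.24), Col5a2 (-0.28) and Col5a3 (-0.15), as it was for Col1a1 (-2.24), Col1a2 (-0.63), Col3a1 (-0.65) and Col11a1 (-0.35). All 7 passed the limma test in that direction, where 48.7% of tested genes were lower and 21.0% higher. Quantile normalization brought the Col3a1 difference from the GFP control to -0.28. Ptprc, which encodes the pan-leukocyte protein CD45, was at 4.39 to 4.74 FPKM in the MLX-DN libraries and at most 0.00989 in the other groups, while 4 of the 6 blood cell markers were under 1 FPKM in all libraries. The part of that signal in the collagen values was not tested.

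Knockdown of Mlx gave the lowest group mean of the 5 for 5 of the 7 genes, for Col1a1 the second lowest, and for Col5a3 the highest. Against the non-targeting shRNA 6 of the 7 genes fell and 1 rose, where 39.3% of tested genes were lower and 30.8% higher. The groups did not overlap for any of the 7, and 39.3% of tested genes lay wholly below and 30.2% wholly above. Col1a1 fell to 23.2% of the control level (log2 -2.06, SE 0.0365), Col3a1 to 29.5% (-1.75, SE 0.0239) and Col1a2 to 37.9% (-1.38, SE 0.0255), with limma adjusted p = 3.11e-16, 1.73e-17 and 4.92e-16. Col5a2 fell by 1.0 on the log2 scale and Col5a1 by 0.84, while Col5a3 rose by 0.39 (adjusted p = 2.05e-08 by limma). Col11a1 fell to 6.13% of the control in FPKM, which the offset of 2 shows as a log2 of -1.06 and an offset of 0.1 as -3.36. The median over the 7 was -1.06, the value of Col11a1 itself, and -1.19 over the 6 others, against -0.02 over all tested genes.

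The same directions held against the GFP control, where MLX shRNA differed by -3.16 for Col1a1, -2.13 for Col1a2, -1.70 for Col3a1, -0.60 for Col5a1, -0.52 for Col5a2, 0.78 for Col5a3 and -0.97 for Col11a1. In that comparison 42.8% of tested genes were lower and 37.3% higher. With median centring, 4675 genes of the table were higher and 3716 lower than with the non-targeting shRNA, in place of 3674 and 4695.

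**Figure D2:**
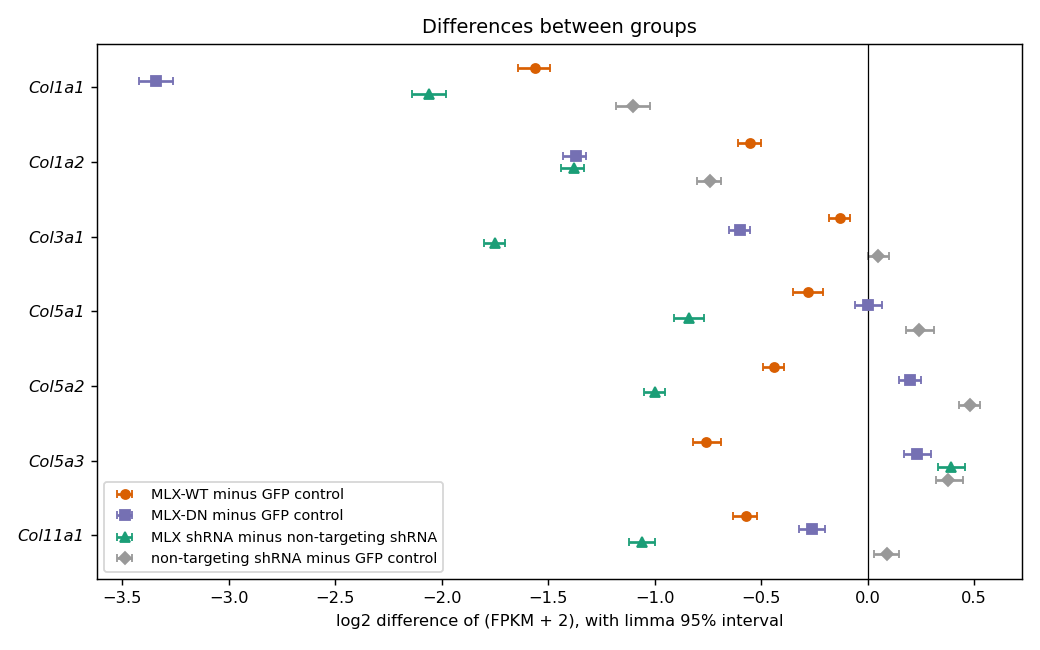
Log2 differences of FPKM + 2 (horizontal axis) for each of the 7 genes in 4 comparisons, with 95% intervals from the limma fit. Col1a1 ran from -1.10 between the controls to -3.34 for MLX-DN, and Col5a3 was above 0 in 3 of the comparisons and at -0.76 for MLX-WT.

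Markers of connective tissue cells moved as well. Of 12 fibroblast and mesenchymal markers, 8 passed the filter and all 8 were lower than with the non-targeting shRNA (median log2 -0.49), where 39.3% of tested genes were lower, including Pdgfrb, a growth factor receptor of pericytes and fibroblasts (40.4 ± 1.51 to 12.9 ± 0.223 FPKM, n = 3). Against the GFP control 3 of the 8 were lower with MLX shRNA and 1 was higher (median log2 -0.06), where 42.8% of tested genes were lower and 37.3% higher. MLX-WT had 4 of the 8 higher and 1 lower than the GFP control, where 27.6% of tested genes were higher and 42.7% lower. MLX-DN had 2 higher and 4 lower, where those shares were 32.6% and 48.8%. Of the 8, Dpt was at most 0.506 FPKM in the GFP control and 0.757 with MLX shRNA, and 4.43 to 5.02 with the non-targeting shRNA. It passed the filter only through groups where it was high, which favoured its fall with MLX shRNA and its rises against the GFP control. Osr1 lay near the filter level with the non-targeting shRNA (1.08 to 1.28 FPKM) and MLX shRNA (0.844 to 1.03). Summed over the 12, MLX shRNA libraries held 79.8 to 83.4 FPKM, non-targeting libraries 147, GFP control libraries 119 to 122, MLX-WT libraries 115 to 116 and MLX-DN libraries 94.4 to 103. Of the 12, Tcf21 and Thy1 were at or near 0 in all groups and Fap and Meox1 were under 1 FPKM, while Pdgfrb had group means of 12.9 to 51.0 FPKM, Ly6a 33.7 to 69.6 and Prrx1 7.78 to 11.6. All 6 endothelial markers were under 1 FPKM (summed level at most 0.490). The summed level was 6.56 to 9.13 FPKM for 6 osteoblast markers and 5.60 to 11.5 for 6 adipocyte markers. Muscle markers moved too. Against the GFP control, 8 of 12 were higher and 3 lower with MLX-WT, where 27.6% of tested genes were higher and 42.7% lower. With MLX-DN, 6 were higher and 2 lower against that control, where those shares were 32.6% and 48.8%. With MLX shRNA against the non-targeting shRNA, 6 were higher and 3 lower, where the shares were 30.8% and 39.3%. Pax7, at 0.768 to 0.969 FPKM in the GFP control, passed the filter only through the other groups, which favoured its rises against that control. Myog was lowest in the GFP control, where Col1a1 was highest, and highest with MLX-DN, where Col1a1 was lowest. Among the other groups the 2 genes had the same order. With the non-targeting shRNA, MLX-WT and MLX shRNA, Myog was at 657, 601 and 578 FPKM and Col1a1 at 206, 148 and 47.7. The part of all these markers in the collagen differences was not tested, and in bulk RNA fewer cells of a type and less RNA per cell cannot be told apart.

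The 2 controls were themselves unlike for these genes. Relative to the GFP control the non-targeting shRNA group was lower for Col1a1 (log2 -1.10) and Col1a2 (-0.74) and higher for Col5a2 (0.48), Col5a3 (0.38), Col5a1 (0.24) and Col11a1 (0.09). That makes 4 higher and 2 lower by limma, where 37.0% of tested genes were higher and 37.1% lower. Col3a1 did not pass as deposited (0.05), and after quantile normalization it was at 0.33 (adjusted p = 9.11e-09 by limma, with 9.11e-09 to 0.353 over its alternatives). The call of Col11a1 was lost with an offset of 0.1 (limma adjusted p = 0.0684).

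MLX-DN and MLX-WT share the GFP control and were also compared with each other. With MLX-DN the 3 genes of types I and III were lower than with MLX-WT, Col1a1 by a log2 of -1.78, Col1a2 by -0.82 and Col3a1 by -0.46 (-0.25 after quantile normalization). The remaining 4 were higher, Col5a3 by 0.99, Col5a2 by 0.65, Col11a1 by 0.32 and Col5a1 by 0.28. The largest adjusted p among the 7 was 1.10e-06 (limma), and 38.9% of tested genes were lower and 33.2% higher.

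Col1a1 and Col1a2 make chains of the same protein, and the ratio of their levels was not constant. The ratio of Col1a1 to Col1a2 in FPKM, which is per length, was 0.836, 0.846 and 0.837 in the GFP control, 0.656, 0.670 and 0.637 with the non-targeting shRNA, and 0.414, 0.415 and 0.415 with MLX-WT. It was 0.402, 0.395 and 0.403 with MLX shRNA and 0.208, 0.213 and 0.201 with MLX-DN. The 5 groups did not overlap, and the highest group mean was 4.06 times the lowest. Type I collagen protein mostly holds more alpha1 than alpha2 chains. At the RNA level Col1a1 was the lower of the pair in all 15 libraries.

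The groups held 99.9% of the variance of the log2 ratio, and of the 1401400 ways to put 15 libraries into 5 groups of 3 no other gave as much (exact permutation p = 7.14e-07, the smallest possible). Between pairs of groups 3 libraries against 3 cannot go below an exact p of 0.1 (two-sided permutation test), and all 10 pairs were at 0.1 (0.1 after adjustment over the 10). The log2 ratio differed from the GFP control by -1.02 (MLX-WT) and -2.02 (MLX-DN), and from the non-targeting shRNA by -0.71 with MLX shRNA. Within a group the SD of the log2 ratio was 0.00288 to 0.0425. MLX-WT and MLX shRNA, whose Col1a1 levels were 148 ± 1.04 and 47.7 ± 0.730 FPKM (n = 3), had ratios of 0.414 ± 0.000828 and 0.400 ± 0.00396 (log2 difference -0.05).

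**Figure D3:**
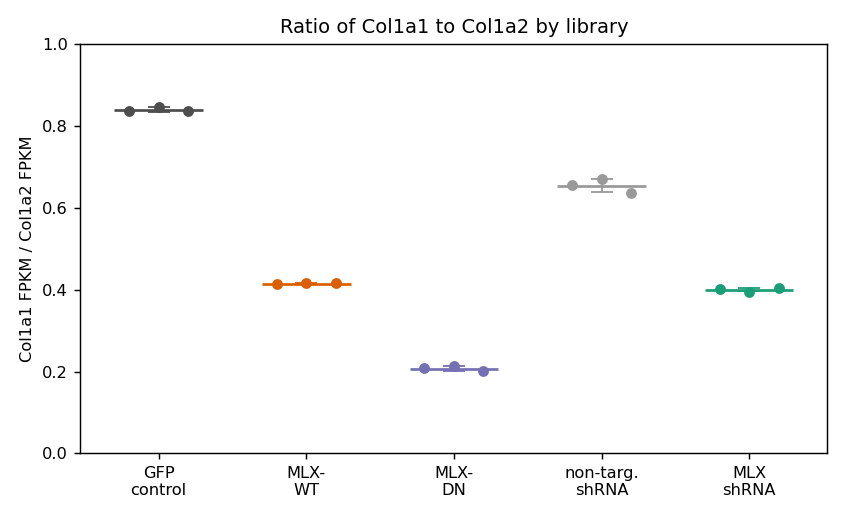
Ratio of Col1a1 to Col1a2 FPKM (vertical axis from 0) in each library, with the mean and SD of 3 libraries per group. The means ran from 0.840 (GFP control) down to 0.207 (MLX-DN), and the spread within a group was small beside the gaps between most groups.

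Among other pairs of chains the spans of group ratios were 1.32, 1.74 and 3.14 times. Col5a1 to Col5a2, the chains of the common type V helix, was 0.499 ± 0.00697 (n = 3) in the GFP control, 0.559 ± 0.00673 with MLX-WT, 0.435 ± 0.0147 with MLX-DN, 0.423 ± 0.00125 with the non-targeting shRNA and 0.470 ± 0.0144 with MLX shRNA, the smallest span. Col5a3 to Col5a2 was between 0.246 and 0.319 in 4 groups and 0.772 ± 0.0170 with MLX shRNA. Col3a1 to Col1a2 was 1.80 in the GFP control, 2.42 and 2.44 in the MLX-WT and MLX shRNA groups, and 3.10 and 3.13 in the MLX-DN and non-targeting groups. Col3a1 and Col5a2 are next to each other on chromosome 1 (GRCm38 annotation), and with MLX-DN they moved in opposite directions against the GFP control.

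The make-up of the fibrillar collagen RNA also shifted. Summed over the 7 genes, GFP control libraries held 2381 ± 19.3 FPKM (n = 3), non-targeting libraries 2116 ± 65.4, MLX-WT libraries 1710 ± 14.4, MLX-DN libraries 1387 ± 29.1 and MLX shRNA libraries 854 ± 17.4. Col1a1 was 18.6% of that sum in the GFP control, 9.72% with the non-targeting shRNA, 8.68% with MLX-WT, 5.58% with MLX shRNA and 3.02% with MLX-DN. Col5a3 was 16% of the sum with MLX shRNA and 2.68% to 6.72% elsewhere. Col3a1 was the largest part in every group, from 34.0% with MLX shRNA to 50.7% with MLX-WT.

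**Figure D4:**
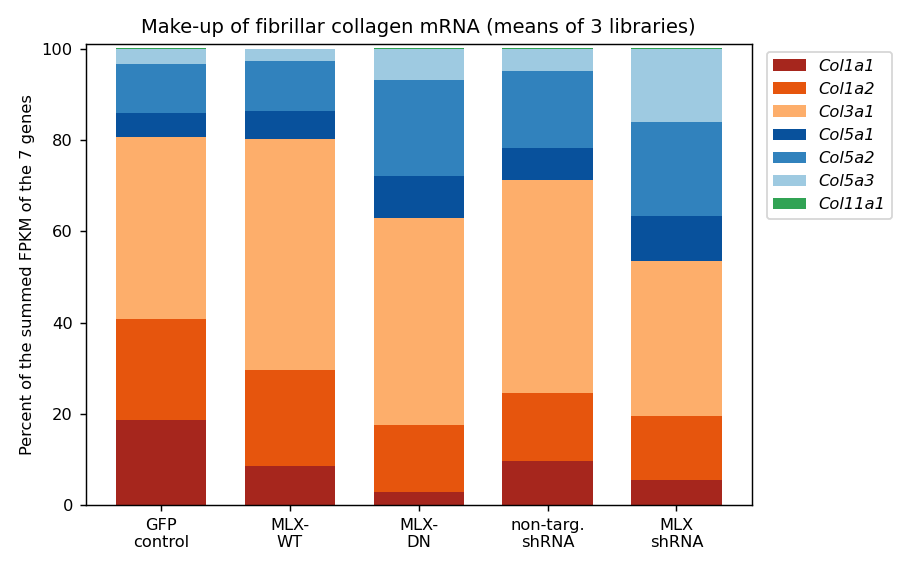
Percent of the summed FPKM of the 7 genes held by each (stacked bars from 0 to 100, means of 3 libraries) in the 5 groups. Col1a1 took 18.6% in the GFP control and 3.02% with MLX-DN, and Col5a3 took 16% with MLX shRNA.

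The difference between the MLX-DN effect (against the GFP control) and the MLX shRNA effect (against the non-targeting shRNA) was tested for each gene. The fall of Col1a1 was larger with MLX-DN, by a log2 of -1.28, and Col5a3 rose less (-0.16). Set directly against MLX-DN, MLX shRNA differed by a log2 of 0.18 for Col1a1 and 0.54 for Col5a3, and the controls themselves differed by -1.10 and 0.38. The falls of Col3a1, Col5a1, Col5a2 and Col11a1 with MLX shRNA were not matched by MLX-DN, with differences of 1.16, 0.85, 1.20 and 0.80. Col1a2 did not pass (log2 0.01, interval -0.07 to 0.09, adjusted p = 0.804 by limma), and after quantile normalization it was at 0.16 (adjusted p = 0.000553 by limma, with 0.000553 to 0.991 over its alternatives). By limma 4 of 7 were higher and 2 lower, where 32.0% of tested genes were higher and 42.8% lower.

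Over the 15 libraries the 7 genes fell into loose patterns, given here as descriptions, since points of a group share their construct. Pearson's r of the log2 values was 0.91 for Col1a1 with Col1a2 (Spearman's rho 0.80), 0.92 for Col1a2 with Col3a1 (0.70), 0.94 for Col5a1 with Col5a2 (0.97) and 0.96 for Col5a1 with Col11a1 (0.91). Col5a3 was at -0.40 with Col1a1, -0.66 with Col1a2 and 0.21 with Col5a2. Outside the family, the 3 genes most like each member among 9919 searched all reached r of 0.977 or more over the 15 libraries. For Col1a1 these were 3 rows of the gamma protocadherin cluster (r = 0.993 each), Pcdhga9 and 2 rows of joined names that share most of their sequence and may share reads. For Col1a2 they were the mitosis genes Bub1b (0.997) and Tpx2 (0.994) and the kinase gene Nek6 (0.994). For Col3a1 they were Glyr1, Nomo1 and Klhl21, for Col5a1 Crip1, Sh3bp4 and Usp37, and for Col5a2 Tor1aip2, Itpripl2 and Cilp, a cartilage matrix gene that stood at 51.8 FPKM with the non-targeting shRNA and 0.281 with MLX shRNA. For Col5a3 they were the cadherin gene Cdh13, the growth factor gene Hbegf and the kinase gene Mast2, and for Col11a1 the basement membrane gene Nid1 (0.986), Man1c1 and Lgmn.

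A collagen chain is hydroxylated, folded, carried out of the cell, trimmed and cross-linked before it joins a fibril, and genes of these steps were counted in lists chosen for each step. With MLX shRNA, 15 of 19 tested genes of procollagen folding and modification fell and none rose (median log2 -0.28), against 39.3% of all tested genes lower. P4ha3, a catalytic subunit of prolyl 4-hydroxylase, went from 13 ± 0.577 to 2.33 ± 0.318 FPKM (n = 3, log2 -1.80), and the lysyl hydroxylase gene Plod2 (-0.70), P4hb (-0.43), the subunit shared by prolyl 4-hydroxylases, and Creb3l1 (-0.49), a transcription factor of collagen-making cells, fell as well. Of 10 genes of export and processing 6 fell and 3 rose (median -0.26). Pcolce, which speeds removal of the C-terminal propeptide (-1.17), its relative Pcolce2 (-0.75) and the N-propeptidase gene Adamts2 (-1.05) fell, and its relative Adamts14 rose (0.86).

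The counts in the next lists stand against the same 39.3% of tested genes lower and 30.8% higher with MLX shRNA. Of 5 lysyl oxidase genes, which encode enzymes that cross-link fibrils, 3 fell, with Loxl3 at -1.16, Lox at -1.12 and Loxl4 at -0.37, and 2 did not pass (list median -0.37). Of 7 tested fibril-binding genes 6 fell and 1 rose (median -0.82). Dcn (decorin) fell from 17 ± 0.384 to 0.445 ± 0.0962 FPKM (n = 3), Thbs2 by 2.22 and Bgn by 1.84 on the log2 scale, and Postn rose by 0.60. Of 7 receptor and uptake genes 5 fell and 2 did not pass (median -0.27): Itga11, a collagen-binding integrin, was at -1.73, the collagen uptake receptor gene Mrc2 at -1.48, Itga10 at -0.38 and Itga1 at -0.27. In FPKM, Itga11 went from 5.73 to 0.321, Itga10 from 0.866 to 0.203 and Itga1 from 0.525 to 0.0946. At such low levels the offset of 2 makes the log2 differences smaller than those of the FPKM. Col12a1 and Col16a1, which encode collagens that sit on fibril surfaces, fell by 1.74 and 0.32.

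With MLX-WT and MLX-DN the lists held members in both directions, where 42.7% of tested genes were lower and 27.6% higher for MLX-WT, and 48.8% and 32.6% for MLX-DN. The MLX-DN counts for folding and for export and processing were near these shares. With MLX-WT 8 of 19 folding genes rose and 8 fell (median 0.01), with P4ha1 at 0.62, Plod2 at 0.63, Tmem38b at 0.50 and Fkbp10, a collagen chaperone gene, at -0.62. With MLX-DN 6 rose and 9 fell (median -0.07), with Tmem38b at 0.82, Leprel4 at -0.76, Fkbp10 at -0.64 and P4ha2 at -0.63. In export and processing 3 rose and 5 fell of 10 in both comparisons, which share the GFP control, and Bmp1, the C-propeptidase gene, was at -0.72 with MLX-DN. Of the 5 lysyl oxidase genes 3 rose and 2 fell in both. Fibril-binding genes fell in 5 of 7 in both, with 1 rise for MLX-WT (Thbs2, 0.95) and 2 for MLX-DN (Thbs1, 0.71, and Postn, 0.75), and the medians were -0.72 and -0.35. Among receptors 5 of 7 fell and 2 rose with MLX-WT (median -0.12), and 4 fell and 1 rose with MLX-DN (median -0.09). These counts include Itga10, which reached 1 FPKM only in the GFP control (1.06 to 1.09). They also include Itga1, which did so only with MLX-WT (1.15 to 1.35). Each passed the filter only through the group where it was high. The filter thus favoured the fall of Itga10 in both comparisons and the rise of Itga1 with MLX-WT.

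TGF-beta is the best known inducer of type I collagen in connective tissue, and 15 of 16 genes of its signalling were tested. Their counts are to be read against the same shares of all tested genes (42.7% lower and 27.6% higher for MLX-WT, 48.8% and 32.6% for MLX-DN, 39.3% and 30.8% for MLX shRNA), and those of MLX-DN were near them. With MLX-WT 10 fell and 4 rose (median -0.15), with the ligand gene Tgfb3 at -0.83 and the target Ctgf at -0.57. With MLX-DN 8 fell and 5 rose (median -0.07), with Tgfb3 at -0.74, Ctgf at 0.72 and Ltbp1, which encodes a protein that stores latent TGF-beta in the matrix, at 0.85. With MLX shRNA 9 fell and 3 rose (median -0.15), with the SMAD repressor gene Ski at -0.59, and the receptor genes Tgfbr3 at -0.63 and Tgfbr2 at -0.41.

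**Figure D5:**
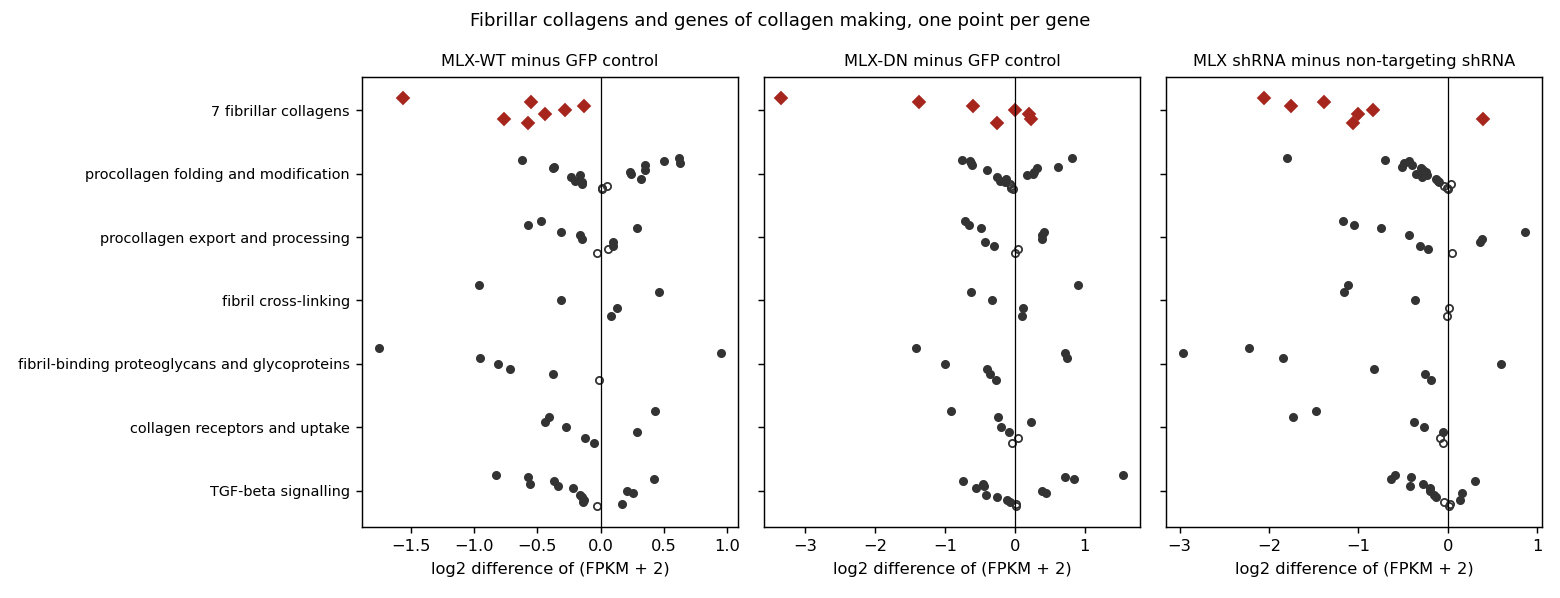
Log2 differences of FPKM + 2 (horizontal axes) for the 7 fibrillar collagens (diamonds) and for genes of 6 lists (circles, filled where the limma adjusted p is under 0.05), in 3 comparisons. With MLX shRNA 15 of 19 folding genes were called lower, against 39.3% of all tested genes. Among these folding genes P4ha3 at -1.80 lay farthest from 0.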

How the data were processed

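Messenger RNA of 15 C2C12 libraries, 3 in each of 5 groups taken from the sample titles, was analysed from 1 table that the authors deposited as log2 FPKM for 23352 genes. Per the labels' protocols the libraries came from a stranded kit after poly(A) enrichment. CASAVA, TopHat2 and STAR, with build mm9, are the names given by the submitters' processing notes. Their versions, roles and any use of strand in counting are not stated there. The lowest deposited value was 1 in every library, so values were read as log2(FPKM + 2) and converted back. Depth was estimated from low FPKM values times transcript length (15972 genes of 1 length), and 61.1% to 64.4% of these came out whole to within 0.05, where an even spread would give 10%. These depths are estimates, and no counting error was computed from them.

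Genes with FPKM of at least 1 in at least 3 libraries (11945) were tested with limma (version 3.58.1, R 4.3.3) using 1 mean per group, a variance trend, two-sided tests, Benjamini-Hochberg adjustment over all tested genes of a comparison and a threshold of 0.05. "Higher", "rose", "lower" and "fell" refer to this test. Its pairwise comparisons were tested on simulated data. The ratio was tested by exact permutation of libraries (Python 3.11.15). Named list genes are among the 4 of lowest p per list and comparison (1 gene is not reported here), and likeness is Pearson's r over 15 libraries among genes whose mean FPKM reached 2. The members and lists were chosen with earlier results of these data known. Alternatives changed the offset, the filter, the scaling, the variance model, the libraries included, the control, or added a replicate block.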

Additional observations from a re-analysis of the deposited data

Results flagged for a closer look

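The response to MLX-DN (against the GFP control) differed from the response to MLX shRNA (against the non-targeting shRNA) in 6 of the 7 genes, by limma's test of the difference itself. Of the 7, 4 were higher and 2 lower, where 32.0% of tested genes were higher and 42.8% lower. The log2 differences of effects were -1.28 for Col1a1, 1.16 for Col3a1, 0.85 for Col5a1, 1.20 for Col5a2, -0.16 for Col5a3 and 0.80 for Col11a1, with adjusted p-values of 6.24e-12, 1.43e-13, 1.60e-10, 6.08e-14, 0.00441 and 6.53e-11. The 2 effects use different controls, which differed from each other for 5 of these 6 genes (Col3a1 did not pass). Between these controls, 37.0% of tested genes were higher and 37.1% lower with the non-targeting shRNA. The part of the controls in the differences cannot be told apart from that of the constructs. Set directly against MLX-DN, MLX shRNA differed by a log2 of 0.18 for Col1a1, -1.11 for Col3a1, -0.60 for Col5a1, -0.72 for Col5a2, 0.54 for Col5a3 and -0.71 for Col11a1.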

How the results depend on the processing

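Under other offsets, filters, scalings, variance models, sets of groups and the replicate block, 366 of 372 single-gene values kept their direction and threshold side. The filter, variance model, set of groups and replicate block cannot alter these log2 differences, so there only the side of the threshold could change. With 1 library left out, 286 of 294 values kept both. Differences near 0 changed sign. Col5a1 with MLX-DN was at -0.00 with quantile normalization and at -0.00, -0.02 and -0.01 without GFP control replicate 3, MLX-DN replicate 1 or MLX-DN replicate 2, its range over libraries left out being -0.02 to 0.04. It passed at 0.10 with median centring (limma adjusted p = 0.00695). The difference of the MLX-DN and MLX shRNA effects on Col1a2 was at -0.01, -0.00, -0.01 and -0.01 without MLX-DN replicate 1, MLX-DN replicate 2, non-targeting shRNA replicate 2 or MLX shRNA replicate 1 (range over libraries left out -0.01 to 0.04). The cause was not tested. With the other control, 1 of 7 genes was higher with MLX-WT (Col1a2, 0.19), and with MLX-DN 0 were higher and 7 lower, Col5a1, Col5a2 and Col5a3 being at -0.24, -0.28 and -0.15. Of all tested genes, 2510 were then higher with MLX-DN, in place of 3892. Leaving out single libraries kept the counts of members in each comparison, except 4 to 5 higher between the controls, and the difference of log2 ratios at -1.02 to -1.01 for MLX-WT, -2.04 to -2.0 for MLX-DN and -0.73 to -0.69 for MLX shRNA. Col11a1 was not tested with the filter at 5 FPKM. The log2 differences of Col11a1 depend on the offset, as its level is near or under 2 FPKM.

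Replicate numbers are shared by all groups, but nothing in the labels ties them to a shared culture. Deviations of same-numbered libraries correlated at -0.09 to 0.18 (median 0.03, 4 of 30 pairs over 0.1). Those of libraries with other numbers correlated at -0.28 to 0.24 (median -0.01, 3 of 60 pairs over 0.1). Of the 15 libraries, 7 were closest to their own number. With the replicate block, 3324 genes were higher and 5103 lower for MLX-WT, 3909 and 5845 for MLX-DN, and 3691 and 4703 for MLX shRNA. The counts of fibrillar collagens were as reported. The log2 ratio differences stay at -1.02, -2.02 and -0.71 by construction, since a mean of paired differences equals the difference of group means.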
